A study of Saccharomyces cerevisiae with 15 samples.

Results

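The genes described here encode the proteins of the small (40S) subunit of the cytosolic ribosome of the budding yeast Saccharomyces cerevisiae. They were chosen by their systematic identifiers, from RPS0A (YGR214W) to RPS31 (YLR167W), and 56 of the 7126 genes in the table are members. No measured value entered that rule, though earlier results of these data were known. They encode 32 proteins, of which 24 come from a pair of genes called A and B and 8 from a single gene. All 56 carried an RPS symbol in the R64 annotation, were measured in every library, and passed the filter on low values.

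Messenger RNA was sequenced from 15 libraries, 3 biological replicates in each of 5 groups, to ask how the transcriptome depends on contacts between the heat shock transcription factor Hsf1 and the chaperone Hsp70. The groups at 30 °C carried the wild type HSF1 allele, hsf1-mN with the amino-terminal Hsp70 site of Hsf1 mutated, hsf1-mC with the carboxyl-terminal site mutated, or hsf1-mNmC with both mutated. The last group was wild type HSF1 shifted to 37 °C for 15 min before harvest. All cultures were in mid-log phase in rich YPD medium, and the labels say neither the strain background nor how each allele was introduced. Separate cultures are stated only as biological replicates, and no batch is given.

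Ribosomal protein genes are among the most strongly transcribed genes of growing yeast, and their messages are a large part of its mRNA. Most are driven by the DNA-binding protein Rap1 together with Fhl1, its coactivator Ifh1 and Sfp1, under the control of the growth kinases TORC1 and protein kinase A, and stress is known to lower them together. Yeast underwent an ancient genome duplication, which is why many ribosomal proteins have paired genes, and introns, rare in this yeast, are common among them.

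The scaling of the values implied 15462618 to 25409519 reads per library, called counted reads here, with a median of 20675392. The lowest read number of any member in any library was 389. The values are FPKM, reads scaled by gene length and by the counted reads of the library, so that levels of different genes can be compared. A pair of libraries went against their labels. HSP26, which encodes a small heat shock protein, had 252 and 225 FPKM in mNmC replicates 1 and 2 but 8599 in the library labelled mNmC replicate 3. It had 8666 and 8896 FPKM in wild type at 37 °C replicates 1 and 2 but 228 in the library labelled 37 °C replicate 3. HSF1 itself stood at 52.1, 59.4 and 149.9 FPKM in the libraries labelled mNmC and at 158.9, 148.5 and 67.6 in those labelled 37 °C, against 152 to 158 in wild type at 30 °C. Groups were kept as labelled in the main analysis, and every result is also given with 13 libraries, that is without those 2.

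The small-subunit genes took 6.92, 6.46 and 6.93% of the counted reads in wild type at 30 °C. In mN the share was 4.10, 4.83 and 5.43%, and in mC it was 4.58, 5.50 and 5.61%. In mNmC replicates 1 and 2 it was 6.03 and 6.11%, and in wild type at 37 °C replicates 1 and 2 it was 1.60 and 1.52%. The library labelled mNmC replicate 3 gave 1.57% and the library labelled 37 °C replicate 3 gave 5.9955%, each close to the other group. In a bulk culture, fewer cells with an RNA and less of it per cell cannot be told apart. All libraries of the mutants at 30 °C apart from the one in doubt lay below the 3 wild type libraries and far above the low set at 37 °C. The summed FPKM of the small-subunit genes over that of the 81 large-subunit ribosomal protein genes was 0.739 to 0.749 in wild type at 30 °C, 0.760 and 0.779 in mNmC replicates 1 and 2, and 0.614 and 0.652 in 37 °C replicates 1 and 2. It was 0.599 in mN replicate 1, against 0.754 and 0.743 in mN replicates 2 and 3.

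**Figure D1:**
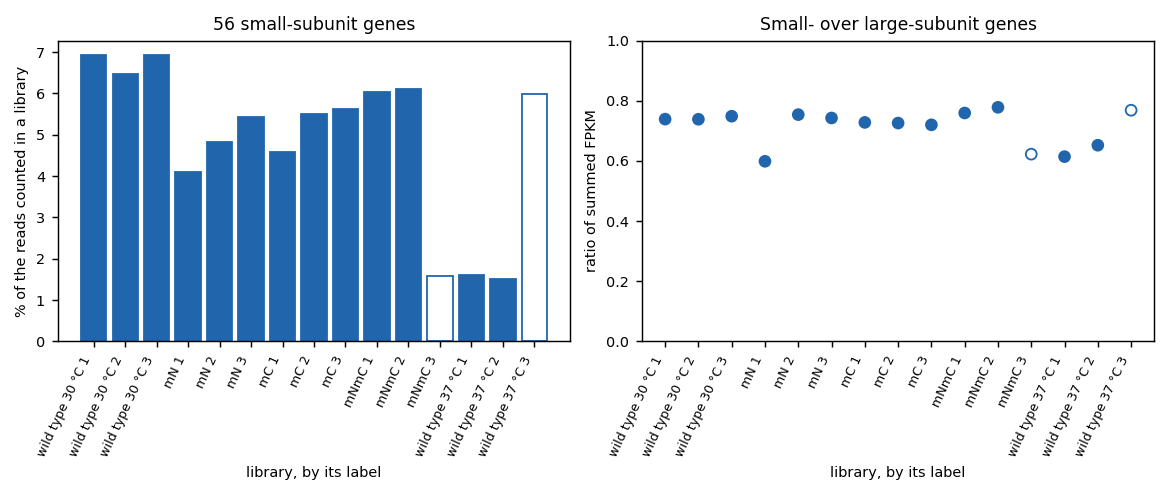
Left, percent of all counted reads that fell on the 56 small-subunit genes in each library. Right, summed FPKM of small-subunit genes over that of large-subunit genes. Open bars and points are the 2 libraries that went against their labels, whose shares of 1.57% and 5.9955% each lie beside the other group.

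Levels at 30 °C in wild type spanned a wide range among genes whose products are needed in equal number. RPS14A was the highest, at 6939 ± 57.4 FPKM (SD, n = 3), followed by RPS28A at 6611 ± 487, RPS31 at 6413 ± 326 and RPS12 at 6281 ± 342, and the last 3 did not differ beyond their spread. RPS27A was the lowest at 253 ± 24.8 FPKM, below RPS9A at 353 ± 5.91 and RPS14B at 586 ± 16.4. With both copies added, the per-protein sums were closer, from RPS2 at 1964, 1887 and 2039 FPKM to RPS28 at 10493, 9407 and 10285. The highest sum was 4.98 to 5.34 times the lowest in these libraries, with a coefficient of variation over the 32 proteins of 35.7 to 36.8%. In 37 °C replicates 1 and 2 the ratio was 11.5 and 11.6 and the coefficient of variation 60.01 and 62.7%, with the same proteins at the ends.

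Promoter and intron sequences are shown for the members on which the results below turn. RPS1A and RPS13 stand for members with a match to the Rap1 motif ACCCNNACA, RPS28A and RPS28B for the pair with an Abf1 match and no Rap1 match near the gene, and RPS14A and RPS14B for a pair with neither whose copies parted at 37 °C. Abf1 is another general regulator of transcription, and some ribosomal protein genes are known to use it in place of Rap1. Each stretch runs from base 300 to base 101 before the start codon, 5′ to 3′ on the strand of the gene, from the RefSeq R64 genome. They lie at chrXII:1019009-1019208, minus strand (RPS1A), chrIV:579158-579357, plus strand (RPS13), chrXV:649108-649307, minus strand (RPS28A), chrXII:672831-673030, plus strand (RPS28B), chrIII:178321-178520, minus strand (RPS14A), and chrX:73487-73686, plus strand (RPS14B). Capitals mark the Rap1 or Abf1 match.
RPS1A: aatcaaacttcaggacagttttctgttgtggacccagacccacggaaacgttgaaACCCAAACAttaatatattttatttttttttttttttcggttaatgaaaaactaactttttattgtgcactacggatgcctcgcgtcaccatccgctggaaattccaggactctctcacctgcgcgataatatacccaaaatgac
RPS13: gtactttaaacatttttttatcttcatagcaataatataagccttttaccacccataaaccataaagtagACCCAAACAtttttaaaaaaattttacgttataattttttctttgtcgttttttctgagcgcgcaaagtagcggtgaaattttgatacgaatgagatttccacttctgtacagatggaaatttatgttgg
RPS28A: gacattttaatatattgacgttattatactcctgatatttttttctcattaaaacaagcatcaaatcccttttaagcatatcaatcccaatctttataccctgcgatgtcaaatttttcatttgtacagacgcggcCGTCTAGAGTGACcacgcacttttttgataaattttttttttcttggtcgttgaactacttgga
RPS28B: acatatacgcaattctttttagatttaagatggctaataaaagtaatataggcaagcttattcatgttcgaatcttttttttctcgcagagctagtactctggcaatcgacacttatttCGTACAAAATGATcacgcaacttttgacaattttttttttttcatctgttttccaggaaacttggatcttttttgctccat
RPS14A: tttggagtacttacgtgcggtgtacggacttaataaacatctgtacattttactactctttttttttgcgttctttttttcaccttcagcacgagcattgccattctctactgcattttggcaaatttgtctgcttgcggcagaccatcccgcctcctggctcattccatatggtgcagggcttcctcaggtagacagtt
RPS14B: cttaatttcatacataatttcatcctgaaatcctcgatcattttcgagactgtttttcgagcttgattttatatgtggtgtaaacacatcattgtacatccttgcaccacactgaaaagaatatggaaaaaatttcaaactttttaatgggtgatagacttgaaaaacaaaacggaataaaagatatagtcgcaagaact

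In the 500 bases before the start codon, on both strands, the Rap1 motif stood before 18 of the 56 members (32.1%), 44.4% of the large-subunit genes and 5.46% of 6006 promoters of that length. The short Fhl1 motif GACGC stood before 27 members (48.2%, against 30.4% of all promoters). The full Abf1 motif stood before 6 members, which were RPS2, RPS10A, RPS16A, RPS21A, RPS28A and RPS28B (10.7%, against 18.1%). The Sfp1 motif AAAATTTT was found before 4 members (7.14%, against 12.4%) and a T tract TTTTTTTT before 21 (37.5%, against 44.2%). The stress element AGGGG, bound by Msn2 and Msn4, stood before 13 members (23.2%, against 34.1%), and the short heat shock element GAANNTTC, bound by Hsf1, before 18 (32.1%, against 19.2%). Motifs were counted separately and may overlap, and a match is a stretch of letters, not a measured binding site.

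Of the 56 members, 36 hold an intron in the coding sequence, 256 to 551 bases long. The usual first 6 bases of a yeast intron, GTATGT, begin 24 of these introns, GTACGT begins 9 and GTATGA begins 3. The first 30 bases are shown for RPS9A (chrXVI:404957-405457, plus strand), RPS9B (chrII:604515-604927, plus strand), RPS14A (chrIII:177907-178213, minus strand) and RPS14B (chrX:73797-74204, plus strand), whose copies changed most unlike each other, with the first 6 bases in capitals. Pre-mRNA of RPS14B is known to be bound and held back from splicing by its own protein product, and splicing of the RPS9 genes is also known to be regulated by Rps9. The values here count spliced coding length and do not separate spliced from unspliced RNA.
RPS9A: GTACGTcgttaatcttctccttttaagggg
RPS9B: GTACGTattagactatatcgaagaggaggg
RPS14A: GTATGTttaatcacatagtgaacattttta
RPS14B: GTACGTgaaaggggtgatatcctgtttaaa

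After 15 min at 37 °C nearly the whole set stood low. With 13 libraries 55 of the 56 members fell, with a median log2 fold change of -2.21 (values are log2(FPKM + 1)), beside a median of 0.29 over all 6399 genes tested and 0.31 over 1495 other genes in the same range of coding length. RPS14B (YJL191W), one of a pair of genes for Rps14, a protein of the subunit platform, was the exception, at 0.02. As labelled, 23 members fell, 0 rose and the median was -1.54. The thresholds are an adjusted p under 0.05 in limma with Benjamini-Hochberg adjustment over all genes tested. Among all genes 5.97% were called lower and 32.1% higher as labelled, and 18.9% lower and 47% higher with 13 libraries.

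RPS26B (YER131W), encoding a protein near the mRNA exit channel, showed the lowest fold change with 13 libraries. Its levels in wild type were 1965, 1772 and 2009 FPKM at 30 °C, then 268 and 221 in 37 °C replicates 1 and 2, with 1648 in the library labelled replicate 3. The groups were apart without that library and also apart with it, with the third value far above the other two. The log2 fold change was -2.97 ± 0.27 (SE, adjusted p = 1.77e-06 in limma, n = 3 and 2), 7.82-fold lower, and as labelled -2.05 ± 0.78 (adjusted p = 0.0547).

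RPS9B (YBR189W), the main gene for Rps9, which is an early-binding protein of the subunit body, had 3040, 2861 and 3159 FPKM at 30 °C and 466 and 445 at 37 °C, with 2581 in the library labelled replicate 3. Its libraries at 37 °C lay below all at 30 °C, and the change was -2.73 ± 0.11 (adjusted p = 3.26e-09 with 13 libraries in limma) or -1.89 ± 0.68 as labelled (adjusted p = 0.0449). RPS22A followed at -2.66 ± 0.23, RPS6A at -2.63 ± 0.14, RPS0A at -2.60 ± 0.07 and RPS31 at -2.55 ± 0.19, all called lower with 13 libraries. RPS6A encodes Rps6, a protein phosphorylated under growth signalling, and RPS31 encodes its product as a fusion with ubiquitin.

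The 8 genes that are the sole source of their protein all fell with 13 libraries. RPS2 (YGL123W), for a protein at the mRNA entry side, had 1964, 1887 and 2039 FPKM at 30 °C and 362 and 360 at 37 °C, with 1656 in the library labelled replicate 3. The replicates lay close together, the groups did not overlap, and the change was -2.44 ± 0.07 with 13 libraries (adjusted p = 2.87e-10 in limma). RPS12 changed by -2.52 and RPS31 by -2.55. RPS15 and RPS20, both for proteins of the head, changed by -2.02 and -1.97, RPS3, for a protein by the mRNA entry channel, by -2.01, and RPS13 by -1.79. As labelled RPS2, RPS12 and RPS20 were called and RPS3, RPS13, RPS15 and RPS31 were not, with adjusted p of 0.0552 to 0.0611 in limma.

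The smallest changes came from both copies of RPS28, one copy of RPS9, RPS14, RPS27 and RPS30. RPS28B (YLR264W), whose mRNA is known to be cut down by its own product, had 3495, 3344 and 3515 FPKM at 30 °C and 1618 and 1751 at 37 °C, with 2744 in the library labelled replicate 3. All libraries at 37 °C were below those at 30 °C, and the change was -1.04 ± 0.11 with 13 libraries (adjusted p = 9.62e-06 in limma) and -0.80 ± 0.22 as labelled (adjusted p = 0.0161). RPS28A changed by -1.41 ± 0.12, RPS27A by -1.44 ± 0.12 and RPS30A by -1.54 ± 0.19, all called lower with 13 libraries. RPS28A and RPS28B are the pair with the Abf1 matches printed above, and the other members with an Abf1 match, RPS21A, RPS16A, RPS2 and RPS10A, changed by -2.10, -2.22, -2.44 and -2.48. Over 18 members with the Rap1 motif the median was -2.26, with a range of -2.63 to -1.71, and over the 38 without it -2.05. Members with an intron had a median of -2.20 and members without one -2.27.

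RPS14B stood at 602, 586 and 569.7 FPKM in wild type at 30 °C and at 609.7 and 583 in 37 °C replicates 1 and 2, with 346 in the library labelled replicate 3. The groups overlapped without that library, and the log2 fold change was 0.02 ± 0.08 (adjusted p = 0.80 in limma, 13 libraries). With each library scaled to the same upper quartile (the 75th percentile), which took the median over all genes down from 0.29 to 0.05, it was -0.23 ± 0.07 and called lower (adjusted p = 0.0124), and all 56 members then fell, beside 30% of all genes lower and 34.2% higher. After the length correction 56 fell too (31.2% lower and 35.3% higher), and without mN replicate 1 in the 13 libraries 55 did (22.1% and 53.1%). RPS9A had 353, 347 and 359 FPKM at 30 °C and 204 and 199 at 37 °C, with 602 in the library labelled replicate 3. That library was above the wild type range and the others below it, and the change was -0.81 ± 0.08 with 13 libraries (adjusted p = 3.47e-06) and -0.28 ± 0.41 as labelled (adjusted p = 0.60).

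Libraries at 37 °C lay wholly below those at 30 °C for 43 members as labelled and for 55 with 13 libraries, where 9.78% and 25.4% of all genes did so, and for 0 members wholly above. Fitted on the 6 libraries of the 2 groups alone, as labelled, 0 members were called, 45 having an unadjusted p under 0.05. Of all genes 2.8% were called lower and 24.2% higher in that fit. FPKM is a share of the library, so a lower value can also come from more RNA of other genes, and the 2 cannot be told apart here.

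**Figure D2:**
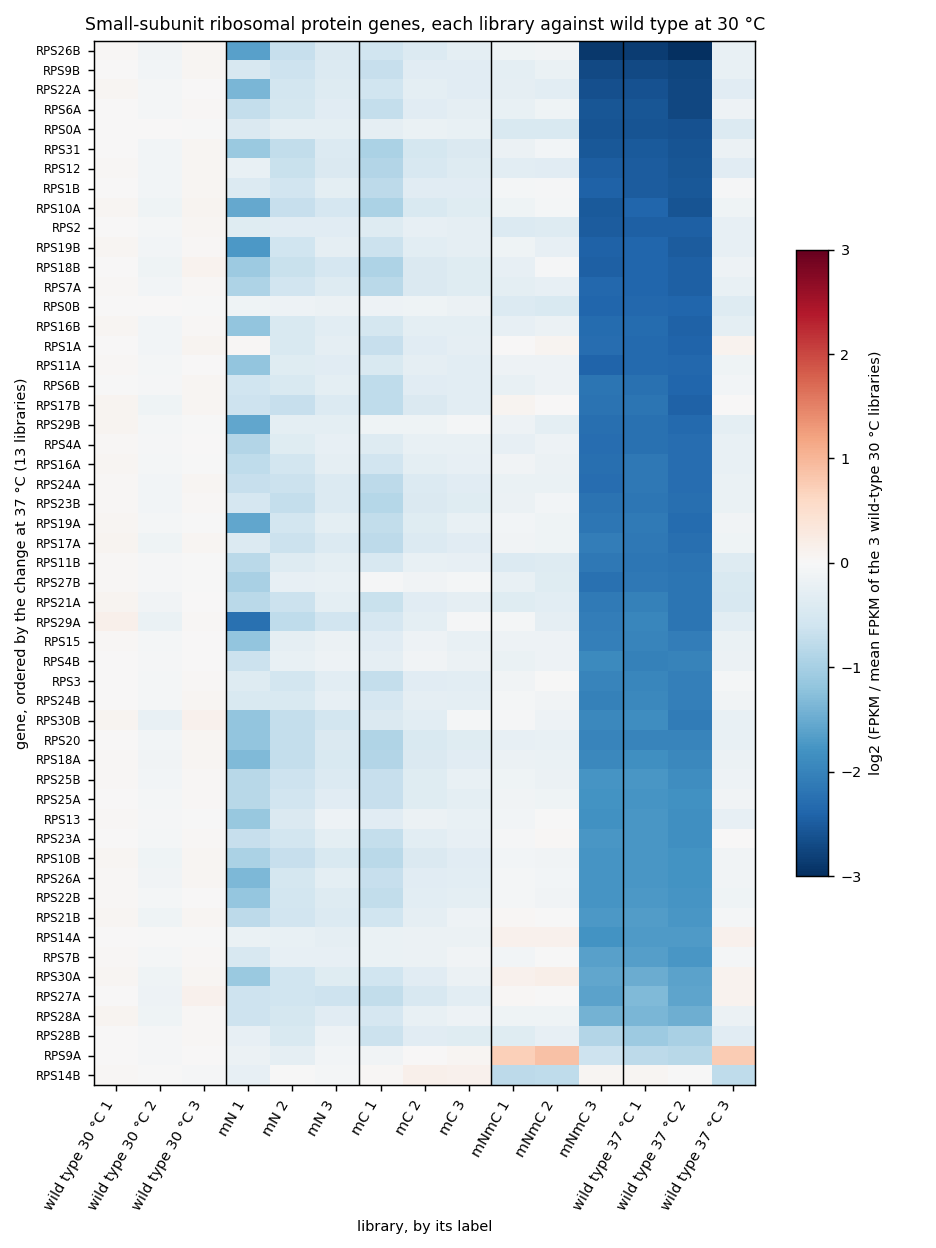
53 of the small-subunit genes (rows, ordered by the change at 37 °C with 13 libraries) in each library (columns, by label), coloured by log2 of the FPKM over the mean of wild type at 30 °C. The columns labelled mNmC 3 and wild type 37 °C 3 each look like the other group, and RPS9A and RPS14B, at the bottom, differ from the other rows.

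Related genes moved as follows at 37 °C with 13 libraries. Of the 81 large-subunit genes 74 fell and 1 rose (RPL15B, by 0.72 ± 0.12), with a median of -2.03. Of 57 assembly factors of the small subunit, which build it in the nucleolus and cytoplasm, 49 fell and 2 rose (HRR25 by 0.46 and RCL1 by 0.30), with a median of -0.76, while with upper quartile scaling 54 fell and 0 rose. The lowest were NOP56, a core protein of box C/D snoRNPs, at -1.66 ± 0.09, the helicase gene ROK1 at -1.48 ± 0.10, KRE33, an rRNA acetyltransferase gene, at -1.38 ± 0.11, and UTP23 at -1.31 ± 0.11. Of 10 genes for factors that bind the subunit 8 fell, among them ASC1, for the Gβ-like protein of the head, by 2.19, and STM1, for a factor that clamps idle ribosomes, by 2.17. Of 27 regulators 14 rose and 2 fell, beside 47% of all genes higher and 18.9% lower. YAK1 rose by 1.34 ± 0.07, TPK2 by 1.08 ± 0.10 and BCY1 by 1.03 ± 0.07. TPK2 and BCY1 encode subunits of protein kinase A, and Yak1 is a kinase that works against growth. With upper quartile scaling 9 regulators rose and 9 fell. As labelled, 40 large-subunit genes, 2 assembly factors and 2 bound factors were called lower, and 1, 2 and 0 higher, beside 10 regulators higher and 0 lower.

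In mNmC at 30 °C RPS9A stood above wild type and RPS14B below it, and how many of the others were called lower depended on the scaling. With 13 libraries 1 member rose, 6 fell and 49 did not pass, with a median of -0.14, beside 0.25 over all genes and 0.36 over other genes of the same length range. As labelled 0 members were called in limma, 1 had an unadjusted p under 0.05, and the median was -0.81. Of all genes 24.5% were called higher and 2.41% lower as labelled, and 40.6% and 7.39% with 13 libraries.

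RPS9A had 353, 347 and 359 FPKM in wild type and 576 and 654 in mNmC replicates 1 and 2, with 231 in the library labelled replicate 3. The first 2 were above all wild type libraries and the last below them. The rise was 0.80 ± 0.08 with 13 libraries (adjusted p = 1.94e-05 in limma), and as labelled the value was 0.33 ± 0.41 (adjusted p = 0.56). RPS9B had 2484 and 2651 FPKM in those libraries, with 460 in the library labelled replicate 3, below the 2861 to 3159 of wild type, at -0.23 ± 0.11 (adjusted p = 0.10 with 13 libraries).

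RPS14B had 338 and 343 FPKM in mNmC replicates 1 and 2, with 609 in the library labelled replicate 3, against 569.7 to 602 in wild type. The first 2 lay far below wild type and the last just above it. RPS14B fell by 0.78 ± 0.08 with 13 libraries (adjusted p = 2.61e-05 in limma), and as labelled the value was -0.50 ± 0.24 (adjusted p = 0.13). RPS14A had 7551 and 7584 FPKM in the same libraries, with 2013 in the library labelled replicate 3, against 6902 to 7005 in wild type, at 0.13 ± 0.07 (adjusted p = 0.14).

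The other members called lower with 13 libraries included both genes for Rps0, a protein on the solvent side near the mRNA exit, RPS2 and RPS11B. RPS0A had 1666, 1668 and 1631 FPKM in wild type and 1204 and 1215 in mNmC replicates 1 and 2, with 274 in the library labelled replicate 3. All 3 mNmC libraries were below wild type. The change was -0.45 ± 0.07 with 13 libraries (adjusted p = 0.000299 in limma) and -1.17 ± 0.59 as labelled (adjusted p = 0.16). RPS0B fell by 0.43, RPS2 by 0.40 and RPS11B by 0.40 with 13 libraries.

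Wild type and mNmC did not overlap for 31 members that were lower as labelled, beside 8.13% of all genes, and for 32 lower and 3 higher with 13 libraries, beside 14.7% and 62.7%. Those 3 were RPS9A, RPS14A and RPS30A. The count of calls depended on the scaling. With 13 libraries, 28 members were called lower with the upper quartile, beside 16.9% of all genes lower and 20.3% higher. After a correction for gene length 51 were, beside 20.7% and 20.1%, and 1 was called higher under either. Without mN replicate 1, which enters only the shared estimate of spread, 17 fell and 2 rose, beside 11% and 52.8%.

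With 13 libraries, 15 large-subunit genes fell and 8 rose in mNmC, with a median of -0.19, or 40 and 4 with the upper quartile. Beside 40.6% of all genes called higher and 7.39% lower, 37 of 57 assembly factors rose and 0 fell, with BUD23 (an 18S rRNA methyltransferase gene) at 1.02 ± 0.24, SLX9 at 0.96 ± 0.16, BFR2 at 0.85 ± 0.10 and BUD21 at 0.82 ± 0.16, or 18 rose and 1 fell with the upper quartile. Of 27 regulators 13 rose and 0 fell, beside the same 40.6% of all genes, with RRP7 at 1.10 ± 0.19, TOD6, a repressor of ribosome biogenesis genes, at 0.98 ± 0.13, IFH1 at 0.87 ± 0.11 and CRF1, a corepressor that competes with Ifh1, at 0.45 ± 0.09, or 3 rose and 3 fell with the upper quartile. Among the bound factors LSO2 and TIF11 rose and ASC1 fell, by 0.63. As labelled, 2 assembly factors, 5 regulators and 1 large-subunit gene were called higher, and 2 large-subunit genes lower.

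**Figure D3:**
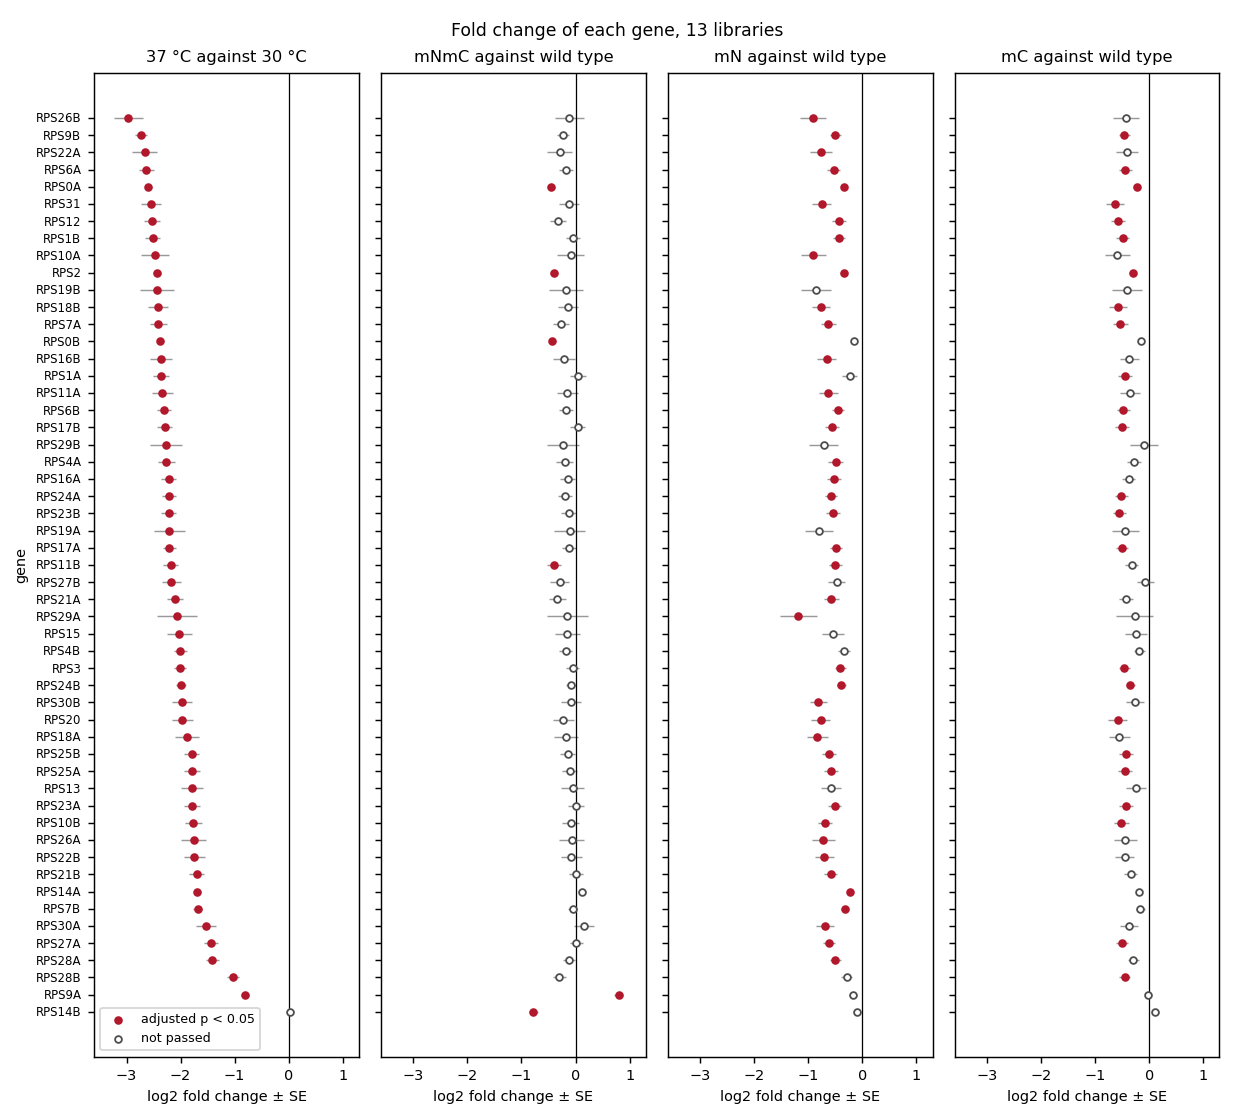
Log2 fold change with its standard error for 53 of the genes in 4 comparisons, fitted on 13 libraries. Filled points pass an adjusted p under 0.05. In the panel for 37 °C all but RPS14B lie below 0 and are filled, while in the panel for mNmC RPS9A (0.80) and RPS14B (-0.78) lie farthest out on either side.

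The single mutants each had modestly lower small-subunit messages than wild type. In mN 44 members fell and 0 rose with 13 libraries, with a median of -0.54 beside 0.03 over all genes and -0.09 over other genes of the same length range. As labelled 0 were called in limma and 0 had an unadjusted p under 0.05; the fold changes are the same in both fits and the standard errors are not. Among all genes 0.0313% were called lower and 0.422% higher as labelled, and 5.36% and 12.8% with 13 libraries. Fitted on the 6 libraries of mN and wild type alone, 15 members fell, beside 1.45% of all genes.

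RPS29A, a gene for a small zinc-binding protein of the head, had 2634, 2057 and 2437 FPKM in wild type and 504, 1394 and 1591 in mN. All mN libraries were lower, with replicate 1 far below the other two. RPS29A fell by 1.19 ± 0.34 with 13 libraries (adjusted p = 0.0328 in limma), and the same log2 value has a standard error of 0.60 and an adjusted p of 0.49 as labelled. RPS26B and RPS10A each fell by 0.91, RPS18A by 0.83 and RPS30B by 0.81. At the other end of the called members, RPS14A fell by 0.23 and RPS7B and RPS0A by 0.33.

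RPS31 had 6471, 6062 and 6705 FPKM in wild type and 2961, 3829 and 4847 in mN. The groups did not overlap, and RPS31 fell by 0.75 ± 0.17 with 13 libraries (adjusted p = 0.0118 in limma). RPS9A had 314, 294 and 331 FPKM in mN, just below its 347 to 359 in wild type, at -0.17 ± 0.07 (adjusted p = 0.11), and RPS14B had 494, 583 and 562, at -0.10 ± 0.07 (adjusted p = 0.35). All libraries of mN were below all of wild type for 54 members, beside 12.3% of all genes, and RPS1A and RPS14B were the exceptions.

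Short genes read low in mN replicate 1. Against the mean of mN replicates 2 and 3, members in that library had a median log2 difference of -0.32, other genes in the same length range -0.38, other genes of up to 300 nt -0.49 and genes longer than the members -0.11. Members of 171 to 786 nt did not all follow: Spearman's rho between length and this difference over the 56 members was 0.35, given as a description. RPS19A had 682 FPKM in that library beside 1375 and 1635, while RPS12 had 5417 beside 3965 and 4685 and RPS1A had 1335 beside 941 and 1070. Without mN replicate 1, 54 members fell with 13 libraries less that one, with a median of -0.43, beside 6.94% of all genes. Without wild type replicate 1 in its place, 18 fell, and without wild type replicate 3, 19. The share of all genes called is not given for either. After the correction for gene length 48 fell, beside 9.66% of all genes lower and 9.81% higher, and with upper quartile scaling 49, beside 8.17% and 12.5%.

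In mC 27 members fell and 0 rose with 13 libraries, with a median of -0.42 beside 0.09 over all genes and 0.05 over other genes of the same length range. As labelled 0 were called in limma and 0 had an unadjusted p under 0.05. Among all genes 0.0156% were called lower and 0.172% higher as labelled, and 2.45% and 12.3% with 13 libraries. Fitted on the 6 libraries of mC and wild type alone, 48 members fell, beside 6.09% of all genes. The count moved with the libraries used. It was 0 without wild type replicate 3, 1 without wild type replicate 1 and 50 without mN replicate 1. The 50 stood beside 6.84% of all genes lower and 26.5% higher. That share is not given for the counts without a wild type library. With upper quartile scaling 40 fell, beside 4.92% of all genes lower and 6.47% higher, and after the correction for gene length 44, beside 6.67% and 5.59%.

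RPS31 had 3338, 4482 and 4784 FPKM in mC, below the 6062 to 6705 of wild type, with replicate 1 the lowest. It fell by 0.63 ± 0.17 with 13 libraries (adjusted p = 0.0314 in limma). RPS12 had 3432, 4506 and 4779 FPKM against 5887 to 6502 in wild type, and RPS12 fell by 0.58 ± 0.13 (adjusted p = 0.0175). RPS20 also fell by 0.58, RPS18B by 0.57, RPS23B by 0.55 and RPS7A by 0.53. RPS14B had 601, 652 and 645 FPKM in mC, overlapping wild type, at 0.11 ± 0.07 (adjusted p = 0.34), and RPS9A had 331, 355 and 365, at -0.01 ± 0.07 (adjusted p = 0.93). The groups did not overlap, mC being lower, for 50 members, beside 10.2% of all genes, and the exceptions were RPS9A, RPS14B, RPS27B, RPS29A, RPS29B and RPS30B.

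With 13 libraries 54 large-subunit genes fell and 1 rose (RPL7B) in mN, and 29 fell and 1 rose (RPL7B) in mC, beside 5.36% and 2.45% of all genes lower. As labelled 0 of the 81 were called in limma in either mutant, 3 having an unadjusted p under 0.05 in mN and 1 in mC, and 0 genes of the other lists were called. With 13 libraries 3 of 57 assembly factors fell in mN (YAR1, UTP23 and SNU13), beside the same 5.36%, and 0 in mC, where 5 had an unadjusted p under 0.05, and 0 rose in either. Of the regulators ABF1 and HMO1 fell in mN, by 0.40 and 0.27, CRF1 and BCY1 rose, by 0.28 and 0.22, and 0 were called in mC, where 5 had an unadjusted p under 0.05. STM1 fell by 0.35 in mN, where TIF11 fell by 0.33, and by 0.28 in mC. All these comparisons share the wild type libraries at 30 °C, so they are not independent of each other.

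Set directly against wild type at 37 °C with 13 libraries, mNmC had 55 members higher and 1 lower, with a median of 1.98, where 28% of all genes were higher and 28.8% lower. The counts were also 55 and 1 after the length correction, beside 29.9% and 30.6%. The one lower was RPS14B, which fell by 0.81 ± 0.09 (adjusted p = 1.23e-05 in limma), while RPS14A was higher by 1.82 ± 0.07, RPS9B by 2.49 ± 0.12 and RPS9A by 1.60 ± 0.09. As labelled 0 members were called and 0 had an unadjusted p under 0.05, as 0% of all genes passed in either direction.

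Whether the effect of both mutations equals the sum of the single effects was tested as an interaction. With 13 libraries the interaction was above 0 for 44 members and below 0 for 1, beside 22.1% and 12.8% of all genes, with a median of 0.82. RPS31 for example changed by -0.75 in mN, -0.63 in mC and -0.13 in mNmC, with an interaction of 1.25 ± 0.25 (adjusted p = 0.0036 in limma). RPS14B went the other way, at -0.10, 0.11 and -0.78, with an interaction of -0.79 ± 0.11 (adjusted p = 0.000375), and RPS9A had 0.98 ± 0.11 (adjusted p = 7.36e-05). As labelled 0 members passed in either direction and 0 had an unadjusted p under 0.05, where 3.5% of all genes were higher and 1.19% lower. After the correction for gene length on 13 libraries 25 were above 0 and 2 below, beside 17.3% and 16.6% of all genes.

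The copies of a pair were seldom equal. In wild type at 30 °C the A copy gave over 50% of the pair's summed FPKM in all 3 libraries for 13 of 24 pairs and under 50% for 9, with 10 pairs between 40 and 60% on average. At 37 °C with 13 libraries the mean share of the A copy moved by under 5 percentage points in 12 pairs. It moved by that little in 22 pairs in mNmC, 23 in mN and 23 in mC. Coding sequences of the copies were 84.3% (RPS27) to 99.2% (RPS6) identical, and no source used here tells how reads matching both copies were counted, so shares of near-identical pairs are uncertain.

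Among the 24 pairs, RPS9 had the largest difference between copies in log2 fold change at 37 °C with 13 libraries. RPS9A gave 10.4, 10.8 and 10.2% of the pair in wild type at 30 °C, 12.6, 12.95 and 12.7% in mN and 15.03, 13.04 and 13.3% in mC. It gave 18.8 and 19.8% in mNmC replicates 1 and 2 (33.4% in the library labelled replicate 3) and 30.5 and 30.9% in 37 °C replicates 1 and 2 (18.9% in the library labelled replicate 3). The 4 sets of shares in wild type at 30 °C, the single mutants, mNmC and 37 °C did not overlap once the 2 libraries were set aside. At 37 °C the log2 fold change of RPS9A was 1.92 above that of RPS9B. The coding sequences are 90.9% identical.

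RPS14 moved in opposite directions in the 2 settings. RPS14A gave 92.1, 92.2 and 92.4% of the pair in wild type at 30 °C, 77.8 and 78.7% in 37 °C replicates 1 and 2, and 95.7 and 95.7% in mNmC replicates 1 and 2. The library labelled mNmC replicate 3 gave 76.8% and the library labelled 37 °C replicate 3 gave 95.6%, again each beside the other group. The single mutants stayed between 90.4 and 92.5%. At 37 °C the log2 fold change of RPS14A was 1.72 below that of RPS14B, RPS14A itself having fallen from 7005, 6910 and 6902 FPKM to 2139 and 2147.

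In RPS26 the A copy went from 67.8, 67.7 and 67.5% to 81.7 and 84.0% at 37 °C, as RPS26B fell the more. The A copy of RPS22 went from 83.1 to 83.3% at 30 °C to 73.1 and 71.8%, that of RPS7 from 75.5, 74.99 and 75.4% to 64.7 and 65.1%, and that of RPS10 from 63.3, 63.5 and 63.996% to 52.8 and 50.3%. In RPS27 the B copy dominated throughout, with the A copy at 5.25, 4.98 and 5.83% at 30 °C and 9.08 and 7.97% at 37 °C. In mNmC replicates 1 and 2 the A copy of RPS26 (68.6 and 68.0%), RPS22 (81.2 and 80.9%) and RPS7 (72.3 and 72.3%) stayed within a few points of wild type. The A copy of RPS21 moved further, from 57.3, 57.5 and 56.3% in wild type at 30 °C to 50.3 and 51.9% in those libraries. It gave 51.1 and 49.4% in 37 °C replicates 1 and 2. In mN the mean share moved most in RPS29, by -6.45 points, and in mC most in RPS7, by -5.16 points. These shares carry no test.

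**Figure D4:**
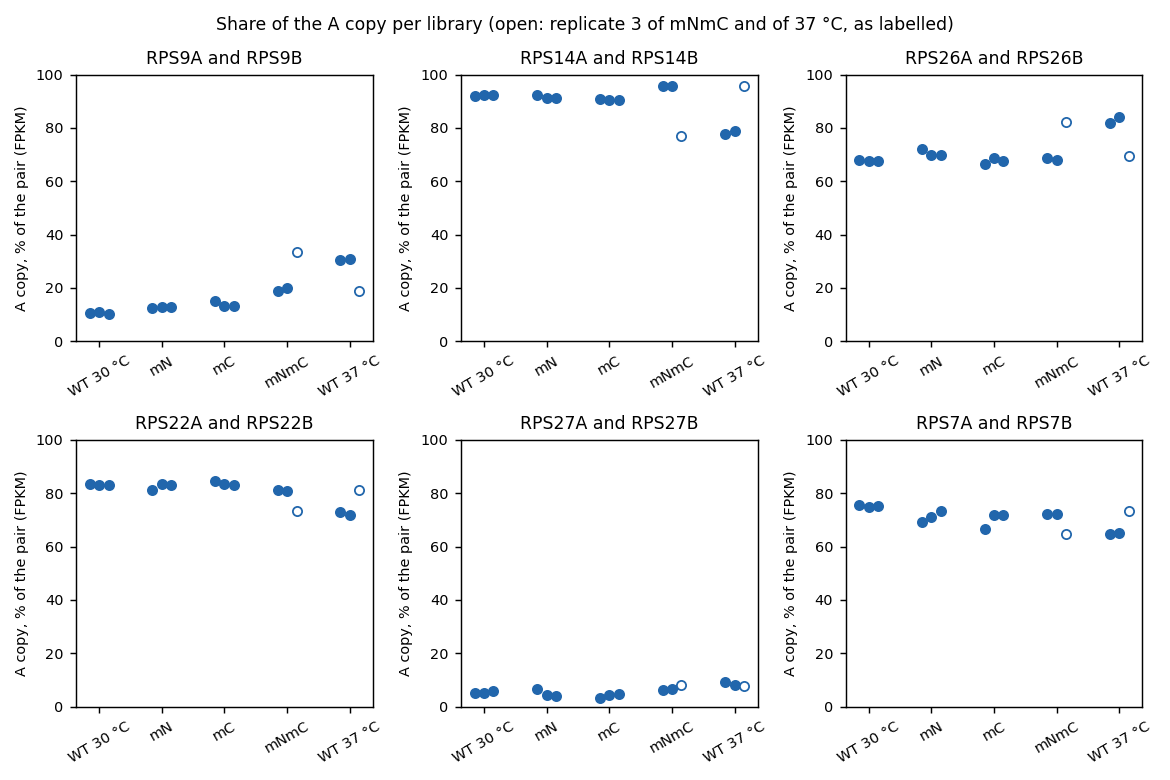
Share of the A copy in the summed FPKM of 6 gene pairs, one point per library, by labelled group (WT, wild type). Open points are the libraries labelled replicate 3 of mNmC and of 37 °C. For RPS14 the A copy holds 77.8 and 78.7% at 37 °C and 95.7% in mNmC, on either side of wild type, while for RPS9 it is above wild type in both.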

How the data were processed

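The authors deposited FPKM values, 1 column per library and 1 row per gene, with Bowtie2 2.2.3, TopHat2 2.0.12 and HTSeq 0.6.1 named in the submitters' processing notes. Per the labels' protocols, mRNA was selected on oligo(dT) from hot phenol RNA and second strands were made by nick translation, with no marking of strand stated. No source used here names the genome build or annotation. FPKM multiplied by R64 spliced coding length gave whole reads, after division by a constant of each library. This held within 0.01 read for 99.2 to 99.3% of single-exon genes, and for 56 of 56 members within 0.1 read. The read numbers come from this. Library totals were taken from that constant and were not checked against summed reads.

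Values were log2(FPKM + 1) for the 6399 genes reaching 1 FPKM in 3 or more libraries, fitted with a mean per group by limma 3.58.1 in R 4.3.3 with a variance trend (10 residual degrees of freedom, 8 with 13 libraries). Benjamini-Hochberg adjustment ran over the whole set of genes tested, in each of 6 comparisons, at a threshold of 0.05. The fit was tested on simulated data with independent noise, whose spread came from the 13 libraries. The simulation held no exchanged libraries and no effect of gene length. It therefore does not tell how the fit as labelled behaves. The length correction subtracts from each library a smooth, on gene length, of its deviations from the mean over libraries, each smooth taking a share of 0.3 of the genes. Sequences and annotation came from the RefSeq R64 genome, read with Python 3.11.15. Alternatives were upper quartile scaling, no variance trend, other filters, another pseudocount, a replicate block, the length correction, the compared groups only, and libraries left out. Leaving out 1 more of the 13 libraries was added after seeing the data.

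The members, gene lists and tests were chosen with earlier results of these data known. A rule named 27 members: the 8 single genes, the 6 lowest and 6 highest called changes per comparison with wild type, and both copies of the 6 pairs that differed most at 37 °C and members called against the majority, with up to 4 genes per list. The called changes were those as labelled, where no mutant had a called member, so the rule drew them from 37 °C alone. Another 11 were named after their values were seen: RPS0B, RPS1A, RPS10A, RPS11B, RPS18A, RPS18B, RPS19A, RPS23B, RPS28A, RPS29A and RPS30A. Changes at 37 °C are also given for RPS16A and RPS21A, as members with an Abf1 match. Those genes are outside these lists and outside the totals over named members. Replicate numbers did not clearly pair the libraries of wild type without the shift, mN and mC. For mNmC and 37 °C the check includes the libraries in doubt, so it cannot show pairing or its absence. Values of some single genes are not reported here, and the counts include them.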

Additional observations from a re-analysis of the deposited data

Results flagged for a closer look

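With 13 libraries the interaction of the mN and mC sites, which tests whether the effect of one mutation differs between backgrounds with and without the other, was above 0 for 44 members and below 0 for 1 (RPS14B) in limma with Benjamini-Hochberg adjustment. Of all genes 22.1% were above 0 and 12.8% below in the same fit. As labelled the interaction was called for 0 members, beside 3.5% of all genes above 0 and 1.19% below. It rests on mNmC replicates 1 and 2, and the count of 44 ranged from 32 (without mNmC replicate 2) to 49 (without mN replicate 1 or 3) with 1 further library left out.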

How the results depend on the processing

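Counts are members of 56 called in limma. The share of all genes called changed between settings as well. A count printed without that share cannot be set against all genes. At 37 °C 5.97% of all genes were lower as labelled and 2.8% with only the groups compared. With 13 libraries it was 18.9%, 30% with upper quartile, 31.2% with length correction and 22.1% without mN replicate 1. In mNmC the share lower was 2.41% as labelled, then 7.39, 16.9, 20.7 and 11% in the same 13-library settings. At 37 °C, 23 fell as labelled, and 48 with upper quartile scaling, 14 with no filter, 53 with the length correction, 0 with only the groups compared, 55 with 13 libraries, 56 with 13 and upper quartile or length correction, and 55 without mN replicate 1 as well. In mNmC 0 fell as labelled, 1 with upper quartile, 2 with length correction, and with 13 libraries 6 fell and 1 rose, 28 and 1 with upper quartile, 51 and 1 with length correction, 17 and 2 without mN replicate 1. In mN 0 fell as labelled, 15 with its own groups, and 44, 49, 48 and 54 in those 4 settings. The shares of all genes lower were 0.0313, 1.45, 5.36, 8.17, 9.66 and 6.94%. In mC the counts were 0, 48, 27, 40, 44 and 50, beside 0.0156, 6.09, 2.45, 4.92, 6.67 and 6.84%. Against 37 °C mNmC had 55 higher and 1 lower in each 13-library setting, and 0 otherwise. There 28 to 34.2% of all genes were higher and 28.6 to 33.6% lower in the 13-library settings. The interaction had 44, 40, 25 and 49 higher and 1, 1, 2 and 1 lower. Of all genes 22.1, 17.2, 17.3 and 26.3% were higher and 12.8, 19.8, 16.6 and 19% lower. The cause of these differences was not tested, beyond the removal of the 2 libraries. The filter at 10 FPKM, the pseudocount of 0.1 and no variance trend left every count within 1.5 times, at 24, 23 and 22 lower at 37 °C. Every other count was 0 as labelled and stayed at 0.

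Correlations of same-numbered deviations ran from -0.08 to 0.15, apart from mNmC against 37 °C, where they ran from -0.95 to -0.81. Deviations in mNmC and at 37 °C include the libraries in doubt, so they cannot show pairing or its absence. Among wild type at 30 °C, mN and mC the correlations ran from -0.02 to 0.15, so replicate numbers did not clearly pair those libraries. With the replicate block 1 member fell at 37 °C and 0 in mNmC, and with block and length correction 28 and 1. The share of all genes called is not given for these block counts.

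Leaving out 1 library of 15 gave 0 (without 37 °C replicate 1) to 54 (without mNmC replicate 3) members lower at 37 °C, 0 to 1 in mNmC, and 0 elsewhere. Leaving out 1 of 13 gave 55 at 37 °C, 4 to 17 lower and 1 to 2 higher in mNmC, 18 to 54 lower in mN, 0 to 50 lower in mC, 55 higher and 1 lower against 37 °C, and 32 to 49 higher and 1 lower in the interaction. A group left with 1 library is assumed to vary like the others. Apart from the fits without mN replicate 1, the share of all genes called is not given for these counts. Their swings therefore cannot be read as particular to the members.

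Signs turned for RPS14B at 37 °C (0.0248 with 13 libraries, -0.382 to 0.0575 over all single libraries left out), and in mNmC for RPS14A (0.1252, -0.832 to 0.132), RPS27A (0.0163, -0.803 to 0.08195), RPS1A (0.0512, -1.133 to 0.0931) and RPS30A (0.153, -0.710 to 0.187). RPS14B in mN was 0.00383 with 13 libraries and length correction, and RPS9A in mC was -0.0423 without mC replicate 3 and 0.0283 without mC replicate 1. Over named members and comparisons with wild type, 4630 values kept direction and call, 1320 passed only under the alternative, 202 passed only as labelled and 80 turned sign. The reference was the fit as labelled, where no mutant had a called member. In the mutants, keeping the call therefore meant only staying not called. The change of RPS9B in mNmC did not pass with 13 libraries. Whether 2 libraries in a group were too few to detect changes of that size was not tested.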
